A study of Mus musculus with 6 samples.

Results

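The macrophage and leukocyte marker genes examined here were *Adgre1*, *Csf1r*, *Cd68*, *Ptprc*, *Lyz2*, *Cd14*, *Itgam*, *Cx3cr1*, *C1qa* and *C1qb*. They were taken by gene name, whatever their values, and made up 10 of the 54532 genes in the table. RNA-seq had been performed on ovarian granulosa cells (GCs), the somatic cells that surround the oocyte in a follicle, to compare gene expression after cyclophosphamide (CTX, an alkylating chemotherapy drug) with that after phosphate buffered saline (PBS). Female ICR mice of 3 weeks of age were given 5 IU of PMSG, a gonadotropin that drives follicle growth, and 22 h later a single i.p. injection of 120 mg/kg CTX or of PBS. GCs were collected 6 h after that injection, with 3 samples per group. Each sample pooled the GCs of 3 mice, so the spread between samples is a spread between pools, and the methods give no sorting step that would remove leukocytes. The level of the 10 genes in these bulk samples was read as a measure of the leukocyte RNA that came along with the GCs.

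Macrophages are the most abundant leukocytes of the ovary and take up dying GCs during follicle atresia. Their growth and survival depend on the receptor encoded by *Csf1r*, and the transcription factor PU.1, encoded by *Spi1*, is required for their identity and binds sites with a GGAA core in many myeloid promoters. *Ptprc* encodes CD45, which nearly all nucleated blood cells carry, *Adgre1* encodes the mouse macrophage antigen F4/80, and *Itgam* encodes CD11b of macrophages, monocytes and neutrophils. *Lyz2* encodes lysozyme M, *Cd68* encodes macrosialin of the lysosome and endosome, and *C1qa* and *C1qb* encode chains of complement C1q, which tissue macrophages produce. *Cd14* encodes a co-receptor for bacterial lipopolysaccharide and *Cx3cr1* the receptor for fractalkine. *Cd68*, *Lyz2* and *Cd14* are also transcribed in cell types other than leukocytes, so a level of these 3 genes alone does not name a cell.

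The bases upstream of *Lyz2*, *Cd68* and *C1qb* are shown because these 3 genes carried much of the marker RNA and were high together in 1 CTX sample, and because myeloid transcription of such genes is known to run through promoter sites of the PU.1 kind. Sequences are from RefSeq on GRCm38.p6, on the strand of the gene, and end where its RefSeq transcript starts, except that of *Lyz2*, which ends where the gene begins in the deposited table. Capitals mark GAGGAA (the PU box) or GGAAGT on either strand. On the reverse strand they read TTCCTC and ACTTCC, and both can overlap by sharing GGAA.
*Lyz2*, chr10:117282322-117282522, minus strand: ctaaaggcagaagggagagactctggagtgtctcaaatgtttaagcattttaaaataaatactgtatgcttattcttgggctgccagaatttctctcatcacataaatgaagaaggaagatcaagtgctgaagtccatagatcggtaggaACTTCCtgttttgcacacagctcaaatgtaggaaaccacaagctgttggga
*Cd68*, chr11:69666171-69666420, minus strand: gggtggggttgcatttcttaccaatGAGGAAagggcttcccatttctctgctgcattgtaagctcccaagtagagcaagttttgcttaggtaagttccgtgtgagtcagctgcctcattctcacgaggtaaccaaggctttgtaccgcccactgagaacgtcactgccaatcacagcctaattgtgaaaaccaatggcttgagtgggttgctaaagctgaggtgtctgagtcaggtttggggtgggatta
*C1qb*, chr4:136886201-136886450, minus strand: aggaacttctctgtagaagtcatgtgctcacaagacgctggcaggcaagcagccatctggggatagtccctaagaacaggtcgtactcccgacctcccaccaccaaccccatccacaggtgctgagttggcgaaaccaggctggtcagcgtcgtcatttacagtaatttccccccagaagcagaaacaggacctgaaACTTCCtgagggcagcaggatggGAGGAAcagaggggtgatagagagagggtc
In the 250 bases before the start, GAGGAA was found in 23.25% and GGAAGT in 19.74% of 32851 mouse promoters, so either motif is common. *Cd68* held 1 GAGGAA and no GGAAGT, *C1qb* held 1 of each, and *Lyz2* held 1 GGAAGT and no GAGGAA. The windows of markers that were not high in that sample held the motifs too, with 2 GAGGAA for *Itgam* and, at the start of *Ptprc* with the most matches, 1 GAGGAA and 2 GGAAGT, while that of *Cx3cr1* held neither. The windows of *Ptprc* and *Cx3cr1* lay wholly inside the gene as the deposited table gives it. The match is a description of the letters and not of binding. *C1qa* lies beside *C1qb* on chromosome 4, at 136895917 to 136898803, and *C1qb* lies at 136880129 to 136886187.

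Reads assigned to genes numbered 16005869 to 18455011 per sample, and a gene of 1 kb with 3 reads had 0.164 to 0.185 FPKM (fragments per kilobase of gene, scaled to sequencing depth). The labelled cell type was borne out by its markers, since all 10 GC genes examined passed the filter on low values and *Inha*, the inhibin alpha subunit of GCs, lay between 8556 and 10402 FPKM. CTX replicate 2 stood apart from the other 5 samples. It lay at 74.7 on the first principal component, which held 46.8% of the variance, while the others lay between -26.6 and 13.2. Its *Cyp19a1* level, the aromatase of GCs, was 6.61 FPKM against 32.5 to 62.4 in the others. Log2 fold changes are therefore also given without this sample.

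All 10 genes had reads in every sample, and their mean levels after PBS treatment ranged from 0.0839 FPKM for *Ptprc* to 13.7 FPKM for *Lyz2*. On the FPKM scale, *Lyz2* was highest, at 13.7 ± 0.586 (mean ± SD, n = 3), and did not overlap with any other marker. *Cd68* (3.11 ± 0.552), *C1qa* (2.50 ± 1.02) and *C1qb* (1.87 ± 0.575) followed, and neighbours in this order overlapped. *Cd14* (1.07 ± 0.222), *Csf1r* (0.618 ± 0.0829) and *Adgre1* (0.230 ± 0.00537) each lay below the one before with no overlap. *Cx3cr1* (0.200 ± 0.0171), *Itgam* (0.138 ± 0.0695) and *Ptprc* (0.0839 ± 0.0138) were lowest, and neighbours among them overlapped. The level of *Ptprc* rests on a gene length of 18313 bases in the table, which joins all annotated exons, whereas its longest coding transcript has 5074 bases. Per that transcript its mean was 0.303 after PBS and 0.286 after CTX treatment, above *Adgre1* after PBS. After CTX treatment the order of the means was the same, but *C1qb* overlapped with *Cd14*, *Csf1r* with *Adgre1* and *Adgre1* with *Cx3cr1*.

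**Figure D1:**
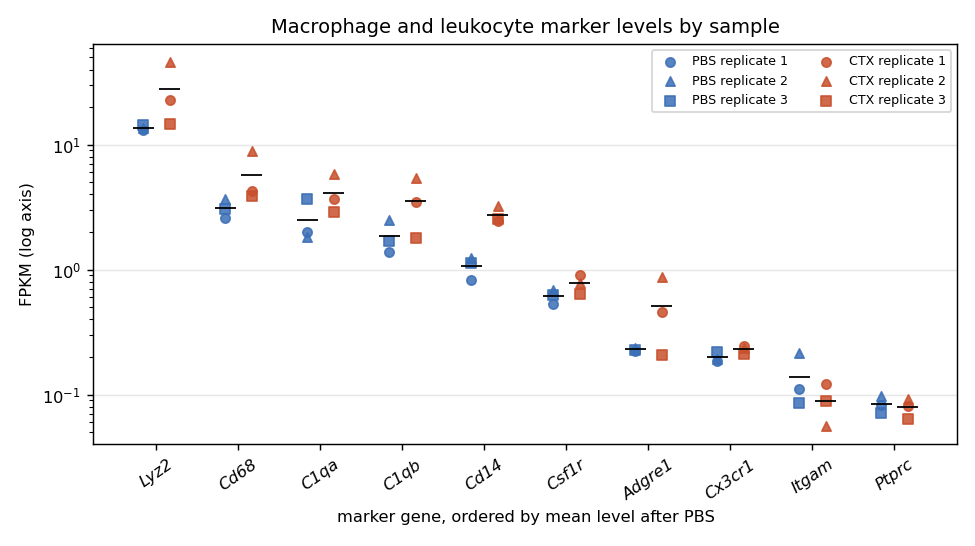
Level of each marker gene in FPKM on a log axis in the 3 PBS samples (blue) and the 3 CTX samples (red), with a symbol for each replicate number and a bar at each group mean. *Cd14* is the gene whose groups lie clearly apart, at 0.821 to 1.25 after PBS and 2.46 to 3.23 after CTX, while CTX replicate 2 (red triangle) is the highest sample of 6 of the 10 genes.

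The summed level of the 10 genes was higher in every CTX sample than in any PBS sample, by an amount that differed widely between CTX samples. It was 21.0, 24.4 and 25.1 FPKM in PBS replicates 1, 2 and 3, and 38.6, 71.2 and 27.0 FPKM in CTX replicates 1, 2 and 3. CTX replicate 3 thus lay just above the PBS samples, and CTX replicate 2 far above all others. The ratio of the means was 1.94, and 1.40 without CTX replicate 2. An exact two-sided permutation test gave p = 0.1, the smallest value that 3 against 3 samples allow. In this bulk RNA, more cells of a type and more RNA per cell cannot be told apart. *Lyz2* made up 54.3% to 64.3% of the sum. Without it the sum was 9.82 ± 1.63 FPKM after PBS and 17.8 ± 6.78 FPKM after CTX treatment (mean ± SD, n = 3), a ratio of 1.82, and 1.43 without CTX replicate 2. The 10 genes together had 563, 682 and 593 reads in PBS replicates 1, 2 and 3 and 1017, 1742 and 709 reads in CTX replicates 1, 2 and 3. Scaled to all reads on genes (RPM), these came to 31.9 to 38.3 after PBS and to 55.1, 97.6 and 40.0 after CTX treatment. The binomial 95% intervals (Wilson) were 35.6 to 41.3 RPM for PBS replicate 2 and 37.2 to 43.0 RPM for CTX replicate 3. They overlapped, so counting error alone could cover the gap between these samples. Such intervals cover counting error only. As a share of all FPKM, the sum was 0.00672% to 0.00784% after PBS and at most 0.0213% after CTX treatment, in CTX replicate 2.

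**Figure D2:**
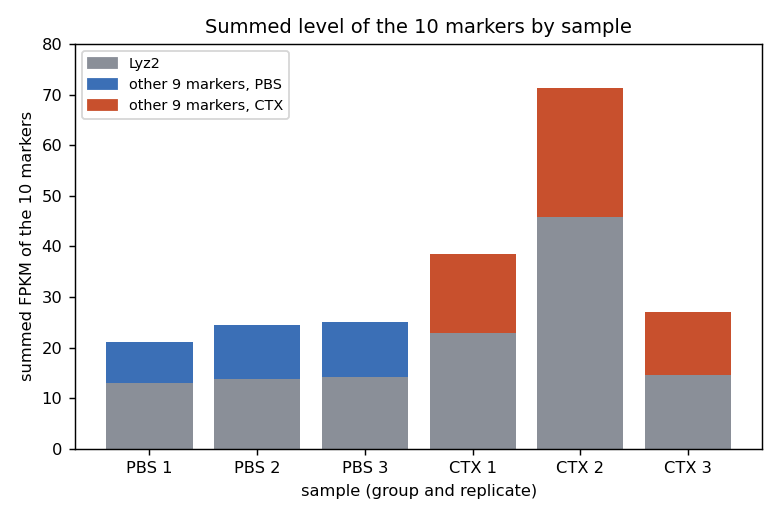
Summed FPKM of the 10 markers in each sample, with *Lyz2* in grey and the other 9 markers in blue (PBS) or red (CTX) above it. CTX replicate 2 reaches 71.2, CTX replicate 1 reaches 38.6, and CTX replicate 3, at 27.0, is close to the PBS samples at 21.0 to 25.1.

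Of the 10 markers, 6 passed the filter of a mean of 0.5 FPKM and entered the limma fit, *Lyz2*, *Cd68*, *C1qa*, *C1qb*, *Cd14* and *Csf1r*, and all 6 had a PBS mean above the filter. A differentially expressed gene (DEG) was one with a change of more than 2-fold and an adjusted p-value below 0.05. *Cd14* was the 1 DEG among them, and it rose; none fell. Over all 14463 genes tested, 0.961% were DEGs, with 0.802% higher and 0.159% lower in CTX, and 1.76% had an adjusted p below 0.05. At an unadjusted p below 0.05, where 19.6% of the genes tested lay, *Cd14* was again the only marker. Without CTX replicate 2 it was also the 1 DEG among the markers, with 1.38% of all genes called. In the limma fit with no filter, which took in all 10 markers, 0 were DEGs against 0.457% of genes, and *Cd14* alone had an unadjusted p below 0.05. The lowest CTX value exceeded the highest PBS value for 3 of the 10 markers, *Cd68*, *Lyz2* and *Cd14*, and the reverse held for 0. Among the genes tested, 15.0% were separated upwards and 14.1% downwards, 29.2% in all. Among the 28857 genes with a read, 9.62% were separated upwards and 19.0% in either direction. Over the 6 tested markers the median log2 fold change was 0.79, and 0.43 without CTX replicate 2, beside a median of -0.01 over all genes tested. When every sample was scaled to the same FPKM total, *Cd14* alone of the 10 kept all CTX samples above the PBS samples.

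**Figure D3:**
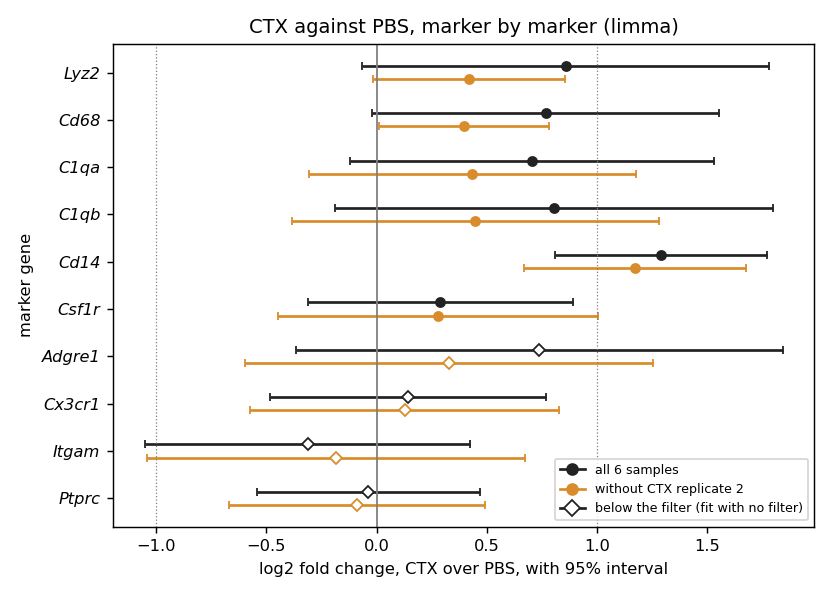
Log2 fold change of CTX over PBS for each marker from limma with its 95% interval, with all 6 samples (black) and without CTX replicate 2 (orange). Filled points are genes that passed the filter, open points come from the fit with no filter, and the dotted lines mark 2-fold. The interval of *Cd14* lies above 0 in both fits, and the points of *Lyz2*, *Cd68*, *C1qa*, *C1qb* and *Adgre1* move towards 0 when CTX replicate 2 is left out.

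*Cd14* was the marker that rose after CTX treatment. Its level was 0.821, 1.25 and 1.14 FPKM in PBS replicates 1, 2 and 3 and 2.46, 3.23 and 2.56 FPKM in CTX replicates 1, 2 and 3, from 23, 36 and 29 reads against 70, 90 and 72. The groups did not overlap, and the lowest CTX sample had close to double the level of the highest PBS sample. The log2 fold change was 1.29 with a standard error of 0.20 (limma, adjusted p = 0.0347). Without CTX replicate 2 it was 1.17 (adjusted p = 0.0395 from limma), so the rise did not rest on that sample. The call held in 2 of the 6 limma fits that left out a sample, and the adjusted p was 0.125 without CTX replicate 3 and 0.108, 0.110 and 0.134 without PBS replicates 1, 2 and 3, with log2 fold changes of 1.13 to 1.40. It was also lost with no filter (adjusted p = 0.0694 from limma) and with a pseudocount of 1, where the log2 fold change was 0.86.

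The level of *Cd14* relative to the other tested markers is given as a description, since *Cd14* was singled out by its call and the difference was not tested. Its log2 level minus the mean log2 level of the other 5 was -1.34, -1.11 and -1.25 in PBS replicates 1, 2 and 3 and -0.73, -0.97 and -0.18 in CTX replicates 1, 2 and 3. The groups did not overlap, though CTX replicate 2 lay close to PBS replicate 2. CTX replicate 3, which had the lowest marker sum after CTX treatment, had the highest *Cd14* level relative to the other markers. Of the partners of CD14 in recognising microbial products, the 2 that were tested did not pass. *Ly96*, encoding MD-2, had 2.24 to 2.56 FPKM after PBS and 1.93 to 2.59 after CTX treatment (log2 fold change -0.17, adjusted p = 0.547 from limma, and -0.09 without CTX replicate 2). *Tlr2*, a further pattern receptor, had 0.410 to 0.742 FPKM after PBS and 0.622 to 1.10 after CTX treatment (0.45, adjusted p = 0.472 from limma, and 0.22 without CTX replicate 2). *Tlr4*, the signalling receptor, and *Lbp*, the binding protein that hands lipopolysaccharide to CD14, were below the filter, with at most 0.151 and 0.365 FPKM.

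Among the genes of the phagocyte lysosome, *Lyz2* and *Cd68* were higher in every CTX sample but did not pass the test. *Lyz2* had 13.1, 13.7 and 14.3 FPKM in PBS replicates 1, 2 and 3 and 22.9, 45.8 and 14.7 FPKM in CTX replicates 1, 2 and 3. The PBS samples were tight and the CTX samples were not, and CTX replicate 3, with 346 reads, lay barely above the highest PBS sample. The log2 fold change was 0.86 with a standard error of 0.38 (limma, adjusted p = 0.276), and 0.42 without CTX replicate 2 (adjusted p = 0.268). With limma's arrayWeights, which weights each sample by its spread, it was 0.13. For *Lyz2*, CTX replicate 3 was 1.07-fold the PBS mean, and CTX replicates 1 and 2 were 1.67-fold and 3.34-fold. The arrayWeights value thus leaned on CTX replicate 3, the CTX sample with the lowest marker sum. Of 50-base windows of the *Lyz2* transcript, 15.4% also occur in its paralog *Lyz1*, which had 1 to 8 reads against 304 to 1069 for *Lyz2*. *Cd68* had 2.59, 3.69 and 3.05 FPKM in PBS replicates 1, 2 and 3 and 4.26, 8.97 and 3.91 FPKM in CTX replicates 1, 2 and 3. As with *Lyz2*, CTX replicate 2 was highest and CTX replicate 3 was near the PBS range. The log2 fold change of *Cd68* was 0.77 with a standard error of 0.33 (limma, adjusted p = 0.263), and 0.40 without CTX replicate 2 (adjusted p = 0.244) and 0.31 with arrayWeights.

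The complement genes *C1qa* and *C1qb* overlapped between groups. *C1qa* had 2.00, 1.84 and 3.68 FPKM in PBS replicates 1, 2 and 3 and 3.66, 5.80 and 2.90 FPKM in CTX replicates 1, 2 and 3. PBS replicate 3 lay above CTX replicates 1 and 3. Its log2 fold change was 0.71 with a standard error of 0.34 (limma, adjusted p = 0.305), and 0.43 without CTX replicate 2 and 0.41 with arrayWeights. *C1qb* had 1.39, 2.51 and 1.70 FPKM in PBS replicates 1, 2 and 3 and 3.50, 5.39 and 1.8 FPKM in CTX replicates 1, 2 and 3. CTX replicate 3 lay inside the PBS range. Its log2 fold change was 0.81 with a standard error of 0.41 (limma, adjusted p = 0.325), and 0.45 without CTX replicate 2. With arrayWeights its direction turned, to -0.061, a value that again leaned on CTX replicate 3. That sample was 0.962-fold the PBS mean, and CTX replicates 1 and 2 were 1.87-fold and 2.89-fold. *C1qc*, which encodes the third chain of C1q, had 1.02 to 1.60 FPKM after PBS and 1.65 to 3.21 FPKM after CTX treatment without overlap and did not pass the test (0.75, adjusted p = 0.236 from limma, and 0.47 without CTX replicate 2). The proteases that C1q activates are made by many cell types. *C1ra* had 3.33 to 3.69 FPKM after PBS and 3.94 to 6.33 after CTX treatment (0.50, adjusted p = 0.203 from limma, and 0.33 without CTX replicate 2). *C1s1* had 3.79 to 4.43 FPKM after PBS and 6.90, 1.53 and 6.10 FPKM in CTX replicates 1, 2 and 3. CTX replicate 2 was the lowest sample for *C1s1*, the opposite of its place for the C1q chains, and without it the log2 fold change of *C1s1* went from -0.02 to 0.65 (adjusted p = 0.031 from limma). *Serping1*, the inhibitor of these proteases, had 2.39 to 3.16 FPKM after PBS and 4.08, 1.99 and 4.11 FPKM in CTX replicates 1, 2 and 3 (0.24, adjusted p = 0.667 from limma), and without CTX replicate 2 the log2 fold change was 0.57 (adjusted p = 0.0912).

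The receptor genes *Csf1r* and *Cx3cr1* differed little between groups. *Csf1r* had 0.528, 0.692 and 0.632 FPKM in PBS replicates 1, 2 and 3 and 0.915, 0.785 and 0.640 FPKM in CTX replicates 1, 2 and 3, from 46 to 81 reads. CTX replicate 3 lay inside the PBS range, and CTX replicate 2 was not the highest sample. The log2 fold change was 0.29 ± 0.60 (95% interval; adjusted p = 0.535 from limma), and 0.28 without CTX replicate 2 and 0.043 with arrayWeights, so a rise of up to 0.89 on the log2 scale lay inside the interval. Of 50-base windows of its transcript, 17.7% are shared with *Hmgxb3* on the opposite strand, which had 768 to 909 reads, and whether counting used strand is not given in the sources used here. *Csf1*, its ligand, had 0.630 to 0.701 FPKM after PBS and 0.941 to 1.13 after CTX treatment without overlap (0.60, adjusted p = 0.187 from limma, and 0.56 without CTX replicate 2). *Il34*, the other ligand, had 1.28 to 1.54 FPKM after PBS and 1.30, 4.03 and 1.68 FPKM in CTX replicates 1, 2 and 3. Its log2 fold change of 0.49 (adjusted p = 0.506 from limma) was 0.03 without CTX replicate 2. *Cx3cr1* had 15 to 16 reads per PBS sample and 17 to 20 reads per CTX sample, or 0.187 to 0.219 and 0.211 to 0.245 FPKM. At this depth a difference was not detectable, with a log2 fold change of 0.14 ± 0.63 (95% interval) in the fit with no filter, and 0.13 without CTX replicate 2. *Cx3cl1*, encoding its ligand fractalkine, was far more abundant, at 16.3 to 18.0 FPKM after PBS and 16.8 to 20.3 after CTX treatment (0.10, adjusted p = 0.552 from limma, and 0.02 without CTX replicate 2).

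The surface antigens F4/80, CD11b and CD45 were represented by few reads. *Adgre1* had 13, 14 and 12 reads in PBS replicates 1, 2 and 3 and 27, 50 and 12 reads in CTX replicates 1, 2 and 3, or 0.225, 0.236 and 0.229 FPKM against 0.460, 0.870 and 0.207 FPKM. CTX replicates 1 and 2 were the highest samples and CTX replicate 3 the lowest of all 6. The log2 fold change in the fit with no filter was 0.74 ± 1.11 (95% interval), and 0.33 without CTX replicate 2. *Itgam* had 10, 20 and 7 reads in PBS replicates 1, 2 and 3 and 11, 5 and 8 reads in CTX replicates 1, 2 and 3. CTX replicate 2, the sample with the highest marker sum, was the lowest for *Itgam*. Its log2 fold change was -0.31 ± 0.74 (95% interval, no filter), and -0.18 without CTX replicate 2. Of 50-base windows of its transcript, 72.4% are shared with *Gm49368* on the same strand, which had at most 3 reads, so how reads were split between them could change its count. *Ptprc* had 27, 33 and 21 reads in PBS replicates 1, 2 and 3 and 27, 30 and 21 reads in CTX replicates 1, 2 and 3. The groups covered nearly the same range, with a log2 fold change of -0.04 ± 0.51 (95% interval, no filter), and -0.09 without CTX replicate 2. *Itgb2*, which encodes CD18, the partner chain of CD11b, had 0.384 to 0.625 FPKM after PBS and 0.384 to 0.777 FPKM after CTX treatment (0.29, adjusted p = 0.672 from limma, and 0.16 without CTX replicate 2). *Icam1*, which encodes an adhesion ligand of leukocyte integrins and is also made by cells that are not leukocytes, rose from 0.245, 0.375 and 0.227 FPKM to 1.39, 1.02 and 1.29 FPKM. Its log2 fold change was 1.82 with a standard error of 0.29 (limma, adjusted p = 0.0385), and 1.94 without CTX replicate 2 (adjusted p = 0.0398). The call held in 1 of the 6 limma fits that left out a sample.

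The markers thus did not move as 1 group. CTX replicate 2 was the highest sample for 6 of the 10 (*Adgre1*, *Cd68*, *Lyz2*, *Cd14*, *C1qa* and *C1qb*), of which 5 were among the 6 that were tested, where 29.9% of all genes tested had their highest value in it. It was at least 1.5 times every other sample for 5 of the 10 (the same genes without *Cd14*), 4 of them tested, against 3.54% of all genes tested. Relative to the PBS mean, its levels were 3.79-fold for *Adgre1*, 3.34-fold for *Lyz2*, 2.89-fold for *Cd68* and *C1qb* and 2.32-fold for *C1qa*, but 1.10-fold for *Ptprc*, 1.19-fold for *Cx3cr1*, 1.27-fold for *Csf1r* and 0.406-fold for *Itgam*. In CTX replicate 3 the same ratio lay between 0.643 and 1.26 for 9 markers and was 2.39 for *Cd14*. The ratio of *Adgre1* to *Csf1r* FPKM was 0.323 to 0.503 in 5 samples and 1.11 in CTX replicate 2.

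Other genes moved with CTX replicate 2 as well, and their part in the marker levels was not tested. The 9 platelet and red cell genes examined summed to 320 to 455 FPKM in the PBS samples and to 360, 139 and 498 FPKM in CTX replicates 1, 2 and 3, with *Gp9* at 0 in every sample. The platelet and red cell sum was thus lowest in the sample with the highest marker sum. That sum was mostly haemoglobin, with *Hba-a1* at 79.8 and *Hbb-bs* at 42.9 FPKM in CTX replicate 2. The list did not move as 1 there. *Itga2b* was lowest in that sample too, at 0.320 FPKM. *Alas2*, at 6.94, lay inside its PBS range of 6.88 to 7.71. *Pf4*, at 0.860 from 11 reads, lay above its PBS range of 0.467 to 0.605. The 10 GC genes summed to 11750 to 12982 FPKM after PBS and 10586 to 11245 FPKM after CTX treatment, most of it *Inha*, with 0 DEGs and no gene at 0. Of these genes, 6 were lower in every CTX sample and 1 higher, where 14.1% and 15.0% of all genes tested were so separated. *Inhba*, an inhibin and activin subunit gene, was lowest in CTX replicate 2, at 211 FPKM against 487 and 665 in the other CTX samples and 754 to 902 after PBS. *Amh*, the anti-Müllerian hormone of growing follicles, was the higher one, at 48.4 to 51.1 FPKM after PBS and 54.3, 179 and 85.5 FPKM in CTX replicates 1, 2 and 3. The 7 endothelial genes summed to 4.88 to 5.64 FPKM after PBS and to 4.22, 1.99 and 4.43 FPKM in CTX replicates 1, 2 and 3, with none at 0. Most of this sum was *Cdh5*, at 3.66 to 4.49 FPKM after PBS and 1.25 in CTX replicate 2. *Kdr*, *Emcn* and *Vwf* were also lowest in that sample, from few reads. *Pecam1*, *Tek* and *Tie1* lay inside their PBS ranges there.

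**Figure D4:**
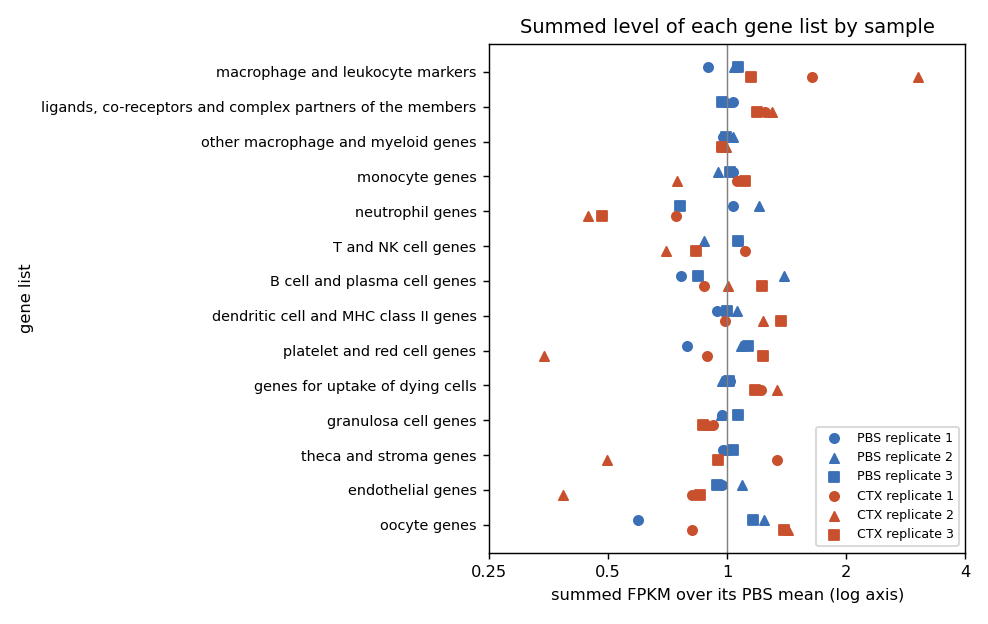
Summed FPKM of each gene list over its mean in the PBS samples, on a log axis, with a symbol for each replicate number in blue (PBS) or red (CTX). The macrophage and leukocyte markers are spread furthest to the right, with CTX replicate 2 highest. The same sample is lowest for the monocyte, neutrophil, T and NK cell, platelet and red cell, theca and endothelial lists. Some of these sums were mostly 1 gene. In CTX replicate 2, *Plac8* made up 1.35 of the monocyte sum of 1.56 FPKM and *Lck* 1.73 of the T and NK cell sum of 2.09. *Cdh5* made up 1.25 of the endothelial sum of 1.99.

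The ligands, co-receptors and complex partners of the markers were 14 genes, of which 12 were tested. Of these, *Icam1* rose, none fell and 11 did not pass the test. The groups did not overlap for 5 of the 12, *Csf1*, *C1qc*, *C1ra*, *Icam1* and *Tyrobp*, all with CTX above PBS, where 15.0% of all genes tested were so separated. *Tyrobp*, the signalling adaptor DAP12 of myeloid cells, had 1.11 to 2.36 FPKM after PBS and 2.43 to 3.89 after CTX treatment (0.80, adjusted p = 0.224 from limma, and 0.63 without CTX replicate 2). The median log2 fold change of the list was 0.47, and 0.40 without CTX replicate 2.

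**Figure D5:**
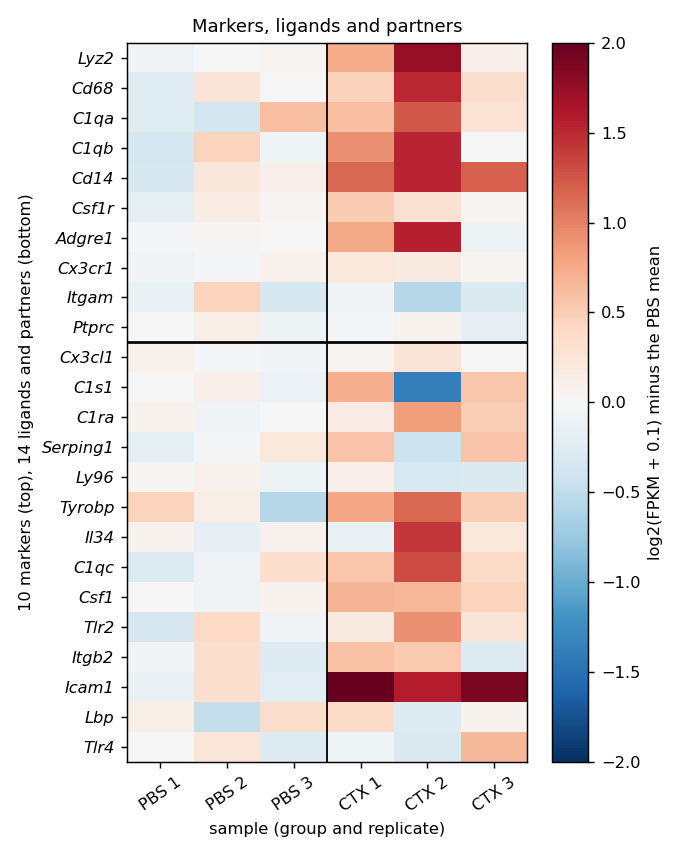
Log2(FPKM + 0.1) of the 10 markers (top) and of 14 genes for their ligands, co-receptors and complex partners (bottom) in each sample, minus the mean of the PBS samples. Red is higher and blue lower. *Cd14* and *Icam1* are red in all 3 CTX samples, *Lyz2*, *Cd68*, *C1qa*, *C1qb* and *Adgre1* are deepest in CTX replicate 2, and *C1s1* is blue there.

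A further 26 macrophage and myeloid genes went both ways. Of them 13 were tested, with 0 rises, 1 fall and a median log2 fold change of -0.09, or 0.05 without CTX replicate 2. Over all genes tested, 0.802% were DEGs that rose and 0.159% DEGs that fell. Of the 13, 1 was higher in every CTX sample and 2 lower, where 15.0% and 14.1% of all genes tested were so separated. Of all 26, 4 were higher in every CTX sample and 2 lower. Among the 28857 genes with a read, 9.62% were separated upwards. *Lyve1*, which encodes a hyaluronan receptor of resident macrophages and of lymphatic endothelium, fell from 3.06, 3.06 and 3.68 FPKM to 0.737, 0.212 and 0.325 FPKM. Its log2 fold change was -2.80 with a standard error of 0.37 (limma, adjusted p = 0.0218), and -2.49 without CTX replicate 2 (adjusted p = 0.0124), and the call held in 2 of the 6 limma fits that left out a sample. *Spi1* had 0.344 to 0.506 FPKM after PBS and 0.573 to 0.621 after CTX treatment without overlap (0.38, adjusted p = 0.478 from limma, and 0.37 without CTX replicate 2). *Aif1*, a macrophage calcium-binding protein gene, had 1 to 5 reads after PBS and 11 to 16 reads after CTX treatment, and *Ms4a7*, a further macrophage gene, had 0 to 4 and 8 to 21 reads. Both were below the filter, as was *Fcgr2b*, an Fc receptor gene with 0.252 to 0.256 FPKM after PBS and 0.257 to 0.399 after CTX treatment. *Mpeg1*, a pore-forming protein gene of macrophages, had 0.841, 1.195 and 1.01 FPKM in PBS replicates 1, 2 and 3 and 1.90, 2.61 and 1.15 FPKM in CTX replicates 1, 2 and 3 (0.77, adjusted p = 0.245 from limma, and 0.51 without CTX replicate 2). *Ctss*, a lysosomal protease gene, had 1.24 to 2.45 FPKM after PBS and 2.80, 3.82 and 2.06 FPKM in CTX replicates 1, 2 and 3 (0.55, adjusted p = 0.368 from limma, and 0.34 without CTX replicate 2). As for *Lyz2* and *Cd68*, CTX replicate 2 was the highest sample of both. *Coro1a*, an actin-binding protein gene of leukocytes, was lower in every CTX sample, at 0.665 to 0.843 FPKM after PBS and 0.486 to 0.602 after CTX treatment (-0.42, adjusted p = 0.384 from limma, and -0.37 without CTX replicate 2). *Csf2ra*, a receptor chain for the growth factor GM-CSF, had 18.4 to 24.5 FPKM in all samples (0.08, adjusted p = 0.744 from limma, and -0.0019 without CTX replicate 2). *Csf2ra* was thus more abundant than every marker in the PBS samples.

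Most genes of other leukocytes had few reads. Of 56 genes for monocytes, neutrophils, T and NK cells, B and plasma cells, dendritic cells and mast cells or eosinophils, 34 had at most 10 reads in every sample, 9 were tested and 0 were DEGs. The mast cell genes *Cma1*, *Mcpt4*, *Tpsb2*, *Ms4a2* and *Fcer1a* had no read in any sample. Others were well covered, and *Cd74*, the invariant chain of MHC class II, had 2.35 to 3.33 FPKM after PBS and 2.86 to 4.95 after CTX treatment (0.47, adjusted p = 0.307 from limma, and 0.47 without CTX replicate 2). *Lck*, a T cell kinase gene, had 1.94 to 2.55 FPKM after PBS and 1.72 to 2.39 after CTX treatment (-0.23, adjusted p = 0.502 from limma, and -0.15 without CTX replicate 2). Of the 14 T and NK cell genes, however, 10 had at most 10 reads in every sample, *Cd3d*, *Cd3e* and *Cd3g* among them. *Zbtb46* of dendritic cells had 0.784 to 1.15 FPKM after PBS and 1.19 to 2.03 after CTX treatment (0.68, adjusted p = 0.212 from limma, and 0.52 without CTX replicate 2), and *Clec9a* had 2.73 to 3.07 against 1.83 to 2.68 (-0.30, adjusted p = 0.342 from limma, and -0.36 without CTX replicate 2). Of the 10 dendritic cell and MHC class II genes, *Flt3* and *Xcr1* were the 2 with at most 10 reads in every sample. The neutrophil list summed to 2.43 to 3.85 FPKM after PBS and 1.42 to 2.37 after CTX treatment. All 3 CTX samples thus lay below the PBS samples for this list, though no gene of it had more than 21 reads in a sample. Of its 8 genes, 1 was lower in every CTX sample and 1 higher. The lower was *Camp*, a granule peptide gene, with 12 to 16 reads after PBS and 10, 0 and 4 reads in CTX replicates 1, 2 and 3. The higher was *Retnlg*, with 0 reads in every PBS sample and 2, 1 and 3 reads in CTX replicates 1, 2 and 3. Among the 28857 genes with a read, 9.62% were separated upwards and 19.0% in either direction. The genes for uptake of dying cells, which GCs express too, numbered 15, of which 12 were tested with 0 DEGs and a median log2 fold change of 0.31, or 0.19 without CTX replicate 2. Of these, 5 had every CTX sample above every PBS sample, against 15.0% of all genes tested, among them *Mertk*, a receptor for dying cells, with 3.18 to 3.34 FPKM after PBS and 3.66 to 5.89 after CTX treatment (0.43, adjusted p = 0.260 from limma, and 0.23 without CTX replicate 2). Its bridging ligand gene *Pros1* had 23.2 to 24.7 FPKM after PBS and 30.2 to 38.3 after CTX treatment (0.49, adjusted p = 0.0740 from limma). Without CTX replicate 2, *Pros1* had a log2 fold change of 0.40 and an adjusted p of 0.0396 from limma.

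The genes most like the markers across samples were sought among 11067 protein-coding genes with a mean of at least 1 FPKM, by Pearson's r with the mean log2 level of the 6 tested markers. With 6 samples and 11067 genes, high values are found by search alone, so they are given as a description. The 10 highest were *Fam98b*, *Ccdc3*, *Pop1*, *Drg1*, *Gm4950*, *Plscr3*, *Crcp*, *Fam149a*, *Hnmt* and *Nudcd3*, with r from 0.982 to 0.991, and from 0.857 to 0.998 without the 2 samples farthest from the median. *Ccdc3* had 4.98 to 6.31 FPKM after PBS and 8.41, 14.2 and 7.07 FPKM in CTX replicates 1, 2 and 3. *Hnmt*, which encodes a histamine-inactivating enzyme, had 1.65 to 2.09 FPKM after PBS and 2.59, 3.63 and 2.15 FPKM in CTX replicates 1, 2 and 3. Most of the others spanned a small range, such as *Fam98b* at 18.3 to 20.6 FPKM over all samples. None of the 10 was a DEG.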

How the data were processed

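RNA-seq of mouse GCs was analysed in 3 PBS and 3 CTX samples, grouped by their labels, which give no batch. The authors deposited FPKM values per gene for 54532 genes. The submitters' processing notes name CASAVA 1.8, fastp, HISAT2 2.0.5, featureCounts 1.5.0-p3 and DESeq2 1.20.0 with build mm10, without roles; strandedness is not given in the sources used here. The deposited table also holds the authors' own comparison, a mean signal per group, a log2 fold change, a p-value and an adjusted p-value, none of which was used. No per-sample column was left unused. Once undone for length and depth, 100% of the FPKM values gave whole reads (within 0.02), and these numbered 16005869 to 18455011 per sample.

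Genes with a mean of at least 0.5 FPKM were compared as log2(FPKM + 0.1) with limma 3.58.1 (lmFit, eBayes with trend) in R 4.3.3, with Benjamini-Hochberg adjustment over 14463 genes. A fold change on this scale understates that of low genes. Markers below the filter were taken from the same fit with no filter. DEGs had an adjusted p below 0.05 and more than a 2-fold change. Intervals are 95% intervals. Coordinates are those of the table on GRCm38, of which 98.3% of genes have the same start and end in GENCODE M21. Upstream sequences were taken from RefSeq, which held entries used here for 6 of the 10 markers. Chromosome 18, where *Cd14* and *Csf1r* lie, was left out for the markers, and no entry was matched for *Adgre1* and *C1qa*. Summaries used SciPy 1.17.1, NumPy 2.4.6 and pandas 2.3.3 (Python 3.11.15), and plots used matplotlib 3.10.9.

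The markers and gene lists were chosen with earlier results of these data known. Named were all 10 markers, genes of each list that were DEGs, did not overlap between groups, were at 0 or were among the 4 highest, and the 10 genes most like the markers. *Il34*, *Itgb2*, *Tlr2*, *Tlr4*, *Ly96*, *Lbp*, *Mpeg1*, *Cd3d*, *Cd3e*, *Cd3g*, *Flt3* and *Xcr1* were named after their values were seen. Replicate numbers were shared by the groups, but same-numbered samples did not deviate together (r = 0.056, 0.024 and 0.0058), so no block was used. The alternatives were other pseudocounts, filters, scalings, weights and gene types, a block on the replicate number, voom on the rebuilt reads, and each sample left out in turn.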

Additional observations from a re-analysis of the deposited data

How the results depend on the processing

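The summed level of the 10 markers kept its direction under every alternative run, with a ratio of 1.84 at a fixed FPKM total and 1.40 to 2.34 when a sample was left out. Over the tested markers the median log2 fold change was 0.43 to 1.10 when a sample was left out, and 0.22 with limma's arrayWeights, which also turned *C1qb* to -0.061. The arrayWeights values of *Lyz2* and *C1qb* lay near CTX replicate 3 against the PBS mean (1.07-fold and 0.962-fold). That fit thus leaned on 1 CTX sample for these genes. The number of DEGs over all genes went from 139 to 657 with arrayWeights and to 58 to 205 when a sample was left out. With the replicate number as a block, there were 50 DEGs, 0 of the markers were DEGs and 0 had an adjusted p below 0.05 (0.0978 for *Cd14*, from limma); the numbers do not pair the samples. The count of markers that were DEGs, and the count with an adjusted p below 0.05, was also 0 with no filter, with a minimum of 5 FPKM (which left 1 marker tested) and, chosen after seeing the data, with voom on genes with at least 10 reads in all or with no filter and without CTX replicate 2. It was 0 to 1 when a sample was left out. The count of DEGs was 0 with a pseudocount of 1, where *Cd14* kept its adjusted p (0.0309 from limma) but not its 2-fold change. The count of markers with every CTX sample above every PBS sample was 1 at a fixed FPKM total and 3 to 7 when a sample was left out, with 7 without CTX replicate 3 and 5 without PBS replicate 2 or 3. Causes were not tested. The 4 markers below the filter had 5 to 50 reads per sample, which limits what could be detected for them.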
